A study of Mus musculus with 20 samples.

Results

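The 10 genes described here are Oxct1, Lpp, Dapk1, Htra1, Eloa, Grsf1, Upp1, Ralb, Dstn and A2m, 10 of the 13283 genes measured in mouse embryonic stem cells with a deleted or an altered Trim71. They were chosen by their measured levels in these libraries: for a like difference in Trim71-KO and in R595H/R595H cells, or for a strong difference in the R595H/R595H clones. Those 2 differences therefore belong to the choice and are given below as a description, with no test. The heterozygous R595H/+ clones were not used in the choice. Oxct1, Lpp, Dapk1, Htra1, Eloa and Grsf1 stood 1.42- to 1.60-fold higher in R595H/R595H than in WT and 1.22- to 1.48-fold higher in Trim71-KO than in its control, and Dstn 1.19- and 1.21-fold higher. Upp1 and Ralb stood 1.33- to 1.36-fold lower in both, and A2m 1.93-fold lower in R595H/R595H. In R595H/+, the means of Lpp and Dapk1 were near that of WT, and that of Dstn, unlike in R595H/R595H, was below it. By limma, none of the 9588 genes tested had an adjusted p under 0.05 for R595H/+ against WT.

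Bulk mRNA sequencing was done on C57BL/6 stem cells, labelled male and grown in FCS with LIF and 2i. In the conditional system, cells with a floxed Trim71 (Trimfl/fl, called Trim71-cond) were compared with cells in which Trim71 was deleted (Trim71-KO), with 4 libraries each, coded 1A, 2B, 3A or 3B by their titles. A second system consisted of clones, 3 each of WT (C16, C7 and C5), R595H/R595H (C14, C20 and C24) and R595H/+ (C15, C21 and C23), and C16, C14 and C15 each had 1 library from 20/1 and 1 from 5/2. The sources used here do not give how the floxed gene was deleted, which part of it is missing or whether the 4 codes are separate deletions, so p-values in that system rest on a spread that may be technical. In the clones the replicate is the clone and the labels name no floxed allele.

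TRIM71 is an RNA-binding protein of the TRIM-NHL family that early embryonic and stem cells make and that binds target mRNAs through its NHL domain to repress them. The R595H change exchanges an arginine for a histidine in that domain, and the corresponding change in humans is linked to congenital hydrocephalus. The 10 genes belong to no common pathway. Oxct1, Upp1 and Grsf1 act in metabolism and mitochondria, Eloa in transcription, Dapk1 and Ralb in signalling, Lpp and Dstn at the actin cytoskeleton, and Htra1 and A2m outside the cell.

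All levels are the authors' deposited values, taken to be on a log2 scale, so that differences are logs of ratios. Base 2 was inferred, and any shrinkage of low values in the authors' transformation would understate their folds. The depth of each library is unknown from such values. Trim71 itself stood at 8.94, 8.94, 8.93 and 9.01 in Trim71-cond 1A, 2B, 3A and 3B and at 7.44, 7.43, 7.47 and 7.53 in Trim71-KO, a fall of 1.48 ± 0.06 (SE). It was higher in R595H/R595H (10.11 ± 0.10, SD, n = 3 clones) than in WT (9.50 ± 0.03, n = 3), with an adjusted p of 0.000633 by limma. All 10 stem cell markers listed were in the table, with Utf1 lowest at a mean of 3.09 on the log2 scale. Their summed linear level was 9008.5 to 9675.9 in Trim71-cond, 10102 to 10862 in Trim71-KO and 9857.8 to 11514 over the clones. Fibroblast markers summed to at most 10.1 in any library on that scale, over the 2 of 8 that were in the table, with Thy1 and Pdgfrb at a mean of 1.90 and 2.51. Primitive endoderm markers, 6 of 7 in the table, summed to 189.1 to 206.5 in R595H/R595H and 190.9 to 303.7 in WT, and most of these sums was Sparc, at a mean of 7.71 on the log2 scale, while Gata6, which defines that lineage, was at 0.05. Trophectoderm markers (3 of 5 in the table) summed to 56.2 to 59.8 in R595H/R595H, above the 42.8 to 49.9 of WT and the 36.7 to 46.1 of R595H/+ with no overlap, and to 53.3 to 84.3 in Trim71-cond and 41.4 to 63.1 in Trim71-KO. Most of these trophectoderm sums was Krt18 and Krt8, at means of 5.04 and 4.08 on the log2 scale. Gata3 was at 0.31, and Cdx2 and Elf5 were not in the table. Neural markers (5 of 6) summed to 114.4 to 131.7 in the conditional system and 90.6 to 115.4 in the clones. The part of these marker levels in the differences below was not tested. In bulk RNA, fewer cells of a type and less RNA per cell cannot be told apart.

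The start sites of these genes are shown first, because nothing in the choice used sequence. Promoter windows of 300 bases around a RefSeq start on GRCm38.p6, mostly upstream of it, were found for 9 of the 10 genes, 13 windows in all; A2m was not matched. The 4 shown are those of Oxct1 and Eloa, whose patterns over the libraries, after centring, lay nearest to each other, and of Upp1 and Ralb, the pair that stood lower in both Trim71-KO and R595H/R595H with no overlap. They are at chr15:4026178-4026477 on the plus strand, chr4:136021600-136021899 on the minus strand, chr11:9117758-9118057 on the plus strand and chr1:119504733-119505032 on the minus strand, each read 5′ to 3′ along its gene. Capitals mark matches on either strand to GGGCGG (the GC box), CCAAT (the CCAAT box), CACGTG (the E-box), TGAGTCA (the AP-1 site) and GGAATG (the TEAD site).
Oxct1: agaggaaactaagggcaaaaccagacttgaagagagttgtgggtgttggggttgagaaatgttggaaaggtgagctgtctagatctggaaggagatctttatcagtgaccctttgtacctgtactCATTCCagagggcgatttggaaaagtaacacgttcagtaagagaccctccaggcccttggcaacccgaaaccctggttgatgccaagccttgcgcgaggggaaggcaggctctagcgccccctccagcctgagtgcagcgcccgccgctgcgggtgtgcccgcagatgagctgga
Eloa: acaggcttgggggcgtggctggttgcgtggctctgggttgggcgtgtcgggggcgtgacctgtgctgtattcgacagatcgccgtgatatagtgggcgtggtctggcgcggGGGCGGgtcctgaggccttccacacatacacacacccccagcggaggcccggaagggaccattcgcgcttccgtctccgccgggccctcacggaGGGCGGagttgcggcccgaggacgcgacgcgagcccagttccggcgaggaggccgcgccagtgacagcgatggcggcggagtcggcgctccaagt
Upp1: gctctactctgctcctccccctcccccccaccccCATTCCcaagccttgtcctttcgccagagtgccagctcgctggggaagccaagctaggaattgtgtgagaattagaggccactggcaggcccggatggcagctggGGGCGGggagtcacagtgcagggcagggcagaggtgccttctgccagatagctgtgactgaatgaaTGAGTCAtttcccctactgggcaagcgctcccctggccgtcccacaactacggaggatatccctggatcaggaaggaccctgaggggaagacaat
Ralb: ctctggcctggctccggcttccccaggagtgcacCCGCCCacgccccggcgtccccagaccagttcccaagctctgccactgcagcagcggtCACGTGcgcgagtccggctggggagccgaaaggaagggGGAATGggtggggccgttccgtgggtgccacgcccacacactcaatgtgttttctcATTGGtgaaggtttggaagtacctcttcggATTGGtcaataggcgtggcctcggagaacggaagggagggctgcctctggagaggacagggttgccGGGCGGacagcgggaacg

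The 4 windows share no motif. GGGCGG was in those of Eloa, Upp1 and Ralb and not in that of Oxct1, and GGAATG was in those of Oxct1, Upp1 and Ralb and not in that of Eloa. Over all 13 windows, GGGCGG was in 10, from 7 of the genes. Upp1 has further windows besides that shown, which overlaps another holding the same GGGCGG match. Beside this, GGGCGG was in 35.7% of the 32851 windows in the RefSeq table and 62.3% of the 13238 windows of measured genes. GGAATG was in 5 windows of 4 genes, beside 14.7% and 12.2%. CCAAT was in 3 windows, beside 37.4% and 38.1%, and CACGTG was in the Ralb window alone, beside 7.15% and 9.89%. TGAGTCA was in 2 windows, both of Upp1 and overlapping each other, beside 5.20% and 3.50%. TATAAA, in 13.6% of all windows, and the CArG box by its usual consensus, in 1.63%, had no match in these 13. Their median GC content was 65.0%, beside 52.7% over all windows and 60.7% over those of measured genes. A match is a string of letters, not a bound site.

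The levels of the 10 genes are given next in every library, always in the order of codes and clones named above, with the 20/1 library of C16, C14 and C15 before the 5/2 library. A mean ± SD is over 4 libraries in the conditional system and over 3 clones in the clonal system. A difference ± SE comes from limma, a linear model fitted to all genes together. Whether groups overlap was judged on library values in the conditional system and on clone values in the clones.

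**Figure D1:**
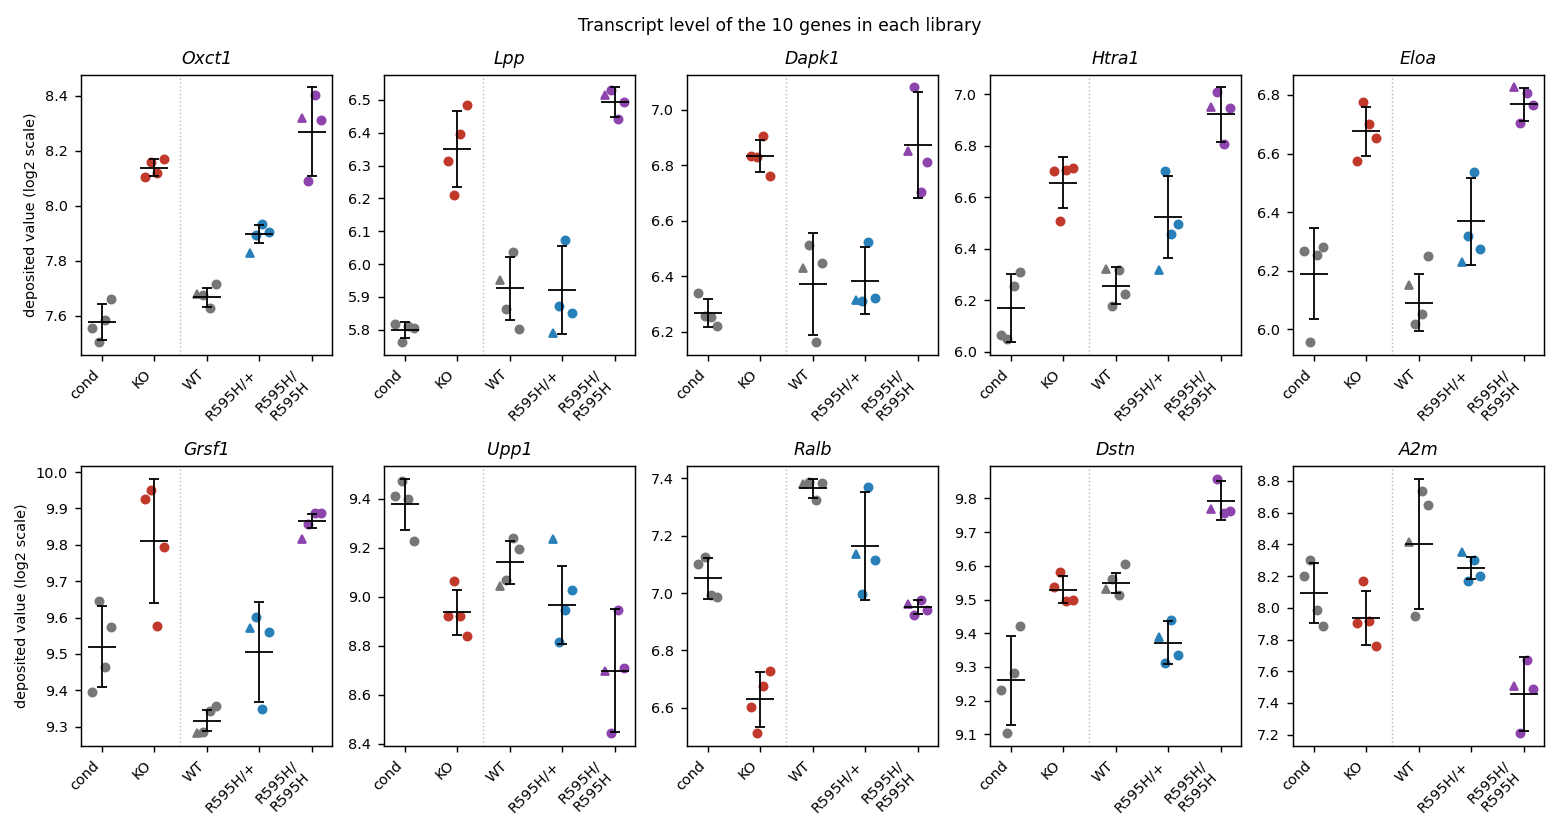
Deposited level (vertical axis, log2 scale, its own range for each gene) of the 10 genes in each of the 20 libraries, with circles for libraries (triangles for the 20/1 libraries) and a bar for the group mean ± SD over 4 libraries or 3 clones. Red Trim71-KO and purple R595H/R595H points lie on the same side of their grey controls in every panel by their means, while for Grsf1 and A2m the Trim71-KO and Trim71-cond points overlap.

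Among the metabolic genes, Oxct1 encodes the mitochondrial CoA transferase that lets cells use ketone bodies as fuel (chromosome 15, 4026383 to 4155344, plus strand, GRCm38, as are all gene positions here, from GENCODE vM21). Its level was 7.56, 7.58, 7.50 and 7.66 in Trim71-cond and 8.11, 8.12, 8.16 and 8.17 in Trim71-KO. All 4 Trim71-KO libraries lay above all 4 controls, with means of 8.14 ± 0.03 and 7.58 ± 0.07 (SD), a difference of 0.56 ± 0.06 (SE), or 1.48-fold. In the clones it was 7.68, 7.72, 7.67 and 7.63 in WT, 7.83, 7.90, 7.89 and 7.93 in R595H/+ and 8.32, 8.31, 8.09 and 8.40 in R595H/R595H. The 3 genotypes formed 3 steps without overlap, and the SD of the R595H/R595H clones, 0.16 around a mean of 8.27, was wider than that of WT (0.03 around 7.67) through the low clone C20. R595H/R595H stood 0.60 ± 0.08 above WT, or 1.52-fold.

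Upp1, uridine phosphorylase, splits uridine into uracil and a ribose phosphate (chromosome 11, 9118103 to 9136170, plus strand). It was lower in both systems: 9.41, 9.40, 9.47 and 9.23 in Trim71-cond against 8.92, 8.92, 9.06 and 8.84 in Trim71-KO. The groups did not overlap, with means of 9.38 ± 0.11 and 8.94 ± 0.09 and a difference of -0.44 ± 0.06, which is 1.36-fold lower. WT libraries were at 9.04, 9.20, 9.07 and 9.24, R595H/+ at 9.24, 9.03, 8.82 and 8.95 and R595H/R595H at 8.70, 8.71, 8.44 and 8.95. R595H/R595H stood 1.36-fold below WT (-0.44 ± 0.11) with no overlap, although its clones were widely spread (SD 0.25), and R595H/+ overlapped both. Without C20, the lowest clone, the difference was -0.32, and without C24, the highest, -0.57.

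Grsf1 binds G-rich RNA in the granules where mitochondrial transcripts are processed (chromosome 5, 88659448 to 88676171, minus strand). Its level was 9.40, 9.46, 9.64 and 9.57 in Trim71-cond and 9.93, 9.58, 9.95 and 9.79 in Trim71-KO. Here the groups overlapped, because the 2B library of Trim71-KO lay below the 3A library of Trim71-cond, and the difference was 0.29 ± 0.07 (1.22-fold). In the clones the values were 9.28, 9.36, 9.29 and 9.34 for WT, 9.57, 9.56, 9.60 and 9.35 for R595H/+ and 9.81, 9.89, 9.86 and 9.89 for R595H/R595H. The R595H/R595H libraries formed a tight group (clone SD 0.02) above the other clones, 0.55 ± 0.07 or 1.46-fold over WT. The R595H/+ clone C23 was at WT level and the other R595H/+ clones between WT and R595H/R595H.

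Eloa encodes elongin A, a subunit of the elongin complex that speeds transcription by RNA polymerase II (chromosome 4, 136003368 to 136021763, minus strand). Trim71-cond libraries were at 6.27, 6.25, 5.96 and 6.28 and Trim71-KO at 6.58, 6.70, 6.78 and 6.65. The groups did not overlap; the difference was 0.49 ± 0.08 (1.40-fold), and 0.41 without the low 3A library of Trim71-cond. WT was at 6.15, 6.25, 6.02 and 6.05, R595H/+ at 6.23, 6.27, 6.32 and 6.54 and R595H/R595H at 6.83, 6.77, 6.70 and 6.81. All R595H/R595H libraries lay above all others in the clones, by 0.68 ± 0.09 or 1.60-fold over WT. No other of the 10 genes stood higher over WT.

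Of the signalling genes, Dapk1 encodes a calmodulin-regulated kinase that promotes cell death (chromosome 13, 60601947 to 60763191, plus strand). It was 6.34, 6.25, 6.26 and 6.22 in Trim71-cond and 6.83, 6.91, 6.83 and 6.76 in Trim71-KO. The groups were far apart relative to their SDs of 0.05 and 0.06, by 0.57 ± 0.07 or 1.48-fold. Clonal values were 6.43, 6.45, 6.51 and 6.16 in WT, 6.31, 6.32, 6.31 and 6.52 in R595H/+ and 6.85, 6.81, 7.08 and 6.71 in R595H/R595H. WT and R595H/+ overlapped throughout, and R595H/R595H stood 0.50 ± 0.11 above WT (1.42-fold), with 0.40 left when its highest clone C20 was left out.

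Ralb is a small GTPase that acts through the exocyst, the complex that tethers vesicles to the plasma membrane (chromosome 1, 119470305 to 119504794, minus strand). Its level was 7.10, 6.99, 7.12 and 6.99 in Trim71-cond and 6.60, 6.68, 6.51 and 6.73 in Trim71-KO, 1.34-fold lower (-0.42 ± 0.07) with no overlap. WT libraries read 7.38, 7.38, 7.39 and 7.33, R595H/+ 7.14, 7.12, 7.00 and 7.37 and R595H/R595H 6.96, 6.94, 6.92 and 6.97. WT and R595H/R595H were both tight (clone SD 0.03 and 0.02) and 1.33-fold apart (-0.41 ± 0.09). The R595H/+ clones spread over the whole gap between them (SD 0.19), from C21 near R595H/R595H to C23 at WT level.

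Lpp, at the cytoskeleton, is a LIM protein of the zyxin family found at focal adhesions and cell contacts (chromosome 16, 24393507 to 24992578, plus strand). Trim71-cond libraries were close together at 5.82, 5.81, 5.76 and 5.80, and Trim71-KO were at 6.31, 6.39, 6.21 and 6.48. Every Trim71-KO library lay above them, the difference being 0.55 ± 0.08 (1.47-fold). In the clones it was 5.95, 5.80, 5.86 and 6.04 in WT, 5.79, 5.85, 5.87 and 6.07 in R595H/+ and 6.52, 6.49, 6.53 and 6.44 in R595H/R595H. R595H/R595H stood 0.57 ± 0.09 above WT (1.48-fold), whereas the R595H/+ mean of 5.92 ± 0.13 was level with the WT mean of 5.93 ± 0.10.

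Dstn encodes destrin, which severs and depolymerizes actin filaments (chromosome 2, 143915320 to 143943324, plus strand). It was 9.23, 9.28, 9.10 and 9.42 in Trim71-cond and 9.54, 9.50, 9.58 and 9.50 in Trim71-KO. The difference of 0.27 ± 0.06 (1.21-fold) came with no overlap, but the 3B library of Trim71-cond was close to the Trim71-KO group, and by code the difference ran from 0.08 in 3B to 0.48 in 3A. Clonal values were 9.53, 9.61, 9.56 and 9.51 in WT, 9.39, 9.34, 9.31 and 9.44 in R595H/+ and 9.77, 9.76, 9.86 and 9.76 in R595H/R595H. R595H/R595H was 0.25 ± 0.07 above WT (1.19-fold), and all 4 R595H/+ libraries lay below all WT libraries. The heterozygous clones thus stood on the other side of WT from the homozygous clones for this gene.

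Htra1, a secreted serine protease that cleaves matrix proteins (chromosome 7, 130936111 to 130985660, plus strand), is the first of the extracellular pair. It was 6.07, 6.25, 6.05 and 6.31 in Trim71-cond and 6.70, 6.71, 6.51 and 6.71 in Trim71-KO, without overlap and 0.49 ± 0.08 apart (1.40-fold). WT was at 6.32, 6.23, 6.18 and 6.32, R595H/+ at 6.32, 6.50, 6.70 and 6.46 and R595H/R595H at 6.95, 6.95, 7.01 and 6.80. R595H/R595H stood 0.67 ± 0.09 above WT (1.59-fold). The R595H/+ clones were between the homozygous genotypes, although the 20/1 library of C15 was level with WT.

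A2m, a secreted inhibitor that traps many kinds of protease (chromosome 6, 121635376 to 121679227, plus strand), meets the other ground of the choice, a strong difference in the homozygous clones. Its level was 8.20, 7.98, 8.30 and 7.88 in Trim71-cond and 7.91, 7.92, 8.17 and 7.76 in Trim71-KO, and these groups overlapped, with a difference of -0.16 ± 0.09 (1.11-fold lower), which was -0.09 without Trim71-cond 3A and -0.23 without Trim71-KO 3A. The clones gave 8.42, 8.65, 7.95 and 8.73 in WT, 8.35, 8.20, 8.17 and 8.30 in R595H/+ and 7.50, 7.49, 7.21 and 7.67 in R595H/R595H. All R595H/R595H libraries were below all others, 1.93-fold under WT (-0.95 ± 0.16). The WT clones themselves were 8.40 ± 0.41 and the low clone C7 moved the result: the difference was -1.18 without C7 and -0.78 without C5. Changed in both systems is thus not a description that the values of A2m bear out, and for Grsf1 the conditional groups overlapped as well.

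Set side by side, 7 genes were higher by their means in both systems (Oxct1, Lpp, Dapk1, Htra1, Eloa, Grsf1 and Dstn) and 3 were lower (Upp1, Ralb and A2m), a sign that the choice itself fixed. The conditional groups did not overlap for 8 of the 10 genes, where 20.8% of all 9580 genes tested did not, and R595H/R595H and WT did not overlap for all 10, where 29.7% of 9588 did not. Because these contrasts chose the genes, nothing is read from those counts. By limma with Benjamini-Hochberg adjustment over all genes, 18.6% of genes were called under an adjusted p of 0.05 in Trim71-KO against Trim71-cond (9.24% higher, 9.37% lower). In R595H/R595H against WT 3.42% were called (2.19% higher, 1.23% lower).

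The sizes in the 2 systems were nearest for Upp1, Ralb and Lpp, at -0.44 and -0.44, -0.42 and -0.41, and 0.55 and 0.57. They were farthest apart for A2m and Grsf1, whose R595H/R595H difference exceeded that in Trim71-KO by 0.79 and 0.26 in size. No test of the difference between the systems was made. Within the conditional system the difference kept its sign in all 4 codes for every gene. That is no test, since this contrast chose the genes. For the 8 genes without overlap any pairing of libraries keeps the sign, and for Grsf1 and A2m it rests on pairing by code. By code, the difference ranged most for Eloa, from 0.31 in 1A to 0.82 in 3A, and least for Upp1, from -0.49 in 1A to -0.39 in 3B. Between the 2 dates of one clone, the widest changes were 0.23 for A2m in C16, -0.21 for Upp1 in C15 and 0.18 for Htra1 in C15 (5/2 minus 20/1).

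**Figure D2:**
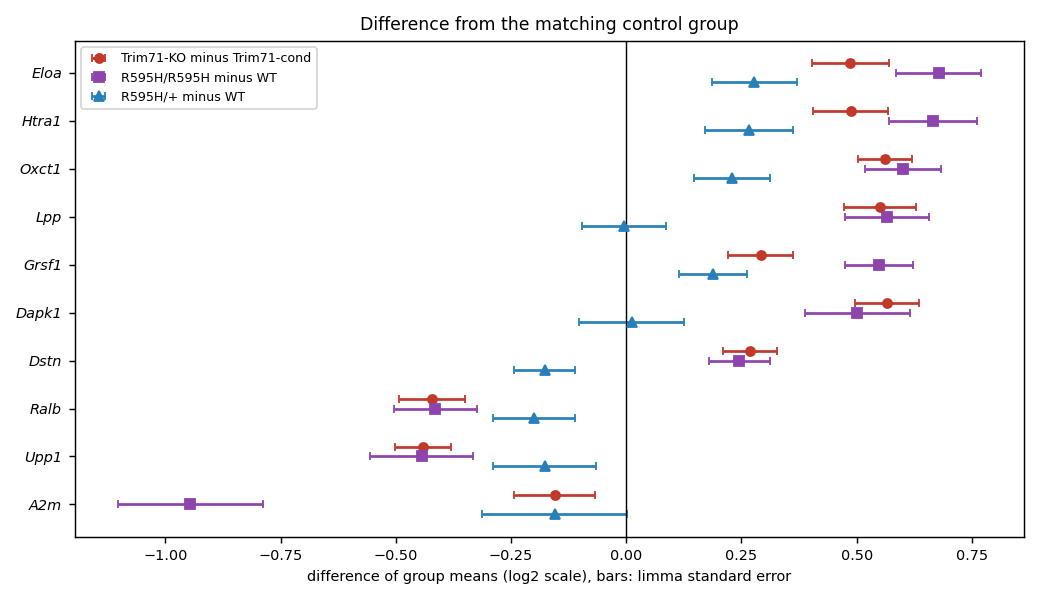
Difference of each of the 10 genes from its control group (horizontal axis, log2 scale; bars are the limma standard error) for Trim71-KO (red circles), R595H/R595H (purple squares) and R595H/+ (blue triangles). Red and purple points are close for Upp1, Ralb and Lpp, while for A2m the purple point lies at -0.95 and the red point at -0.16.

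The control groups of the systems also differed in level, without a test. No group was measured in both systems, so a difference of cells and one of handling cannot be told apart. This holds for the orders of group means below as well. WT clones stood above Trim71-cond by 0.31 for Ralb, 0.31 for A2m and 0.29 for Dstn, and below it by their means for Upp1 (-0.24), Grsf1 (-0.20) and Eloa (-0.10). For Oxct1, Lpp, Dapk1 and Htra1 the WT mean was 0.09 to 0.13 higher. Over the 5 groups the order of the means was Trim71-cond, WT, R595H/+, Trim71-KO and R595H/R595H, from low to high, for Oxct1, Dapk1 and Htra1. Of those steps, the libraries of neighbouring groups were apart for Oxct1 between WT and R595H/+ and between R595H/+ and Trim71-KO, for Dapk1 between R595H/+ and Trim71-KO, and for Htra1 between Trim71-KO and R595H/R595H. Lpp had the same order but with R595H/+ and WT exchanged, and Eloa with Trim71-cond and WT exchanged, and in both the gap below Trim71-KO was the step whose libraries did not overlap.

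The remaining genes had orders of their own. For Grsf1 and Upp1 the libraries of every pair of neighbouring groups overlapped, Grsf1 running from WT up to R595H/R595H and Upp1 from R595H/R595H up to Trim71-cond. Ralb was lowest in Trim71-KO, then in R595H/R595H, then in Trim71-cond, R595H/+ and WT, of which the last 3 overlapped in turn. Dstn ran from Trim71-cond and R595H/+, which overlapped, to Trim71-KO and WT, which overlapped, to R595H/R595H above both. A2m was lowest in R595H/R595H, and the other 4 groups overlapped in turn up to WT.

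The R595H/+ clones give a measurement that the choice left free: how far they lie from the middle of the range between WT and R595H/R595H. This distance, the R595H/+ mean minus the midpoint of WT and R595H/R595H, is independent of the difference between those genotypes only where their clones spread equally. The SDs of WT and R595H/R595H were not equal for several genes, at 0.03 and 0.16 for Oxct1, 0.09 and 0.25 for Upp1 and 0.41 and 0.23 for A2m. In R595H/+, 6 genes lay near the midpoint. Oxct1 was at -0.07 (95% interval -0.22 to 0.08) from it, Htra1 at -0.07 (95% interval -0.24 to 0.11) and Eloa at -0.06 (95% interval -0.23 to 0.11). Grsf1 was at -0.09 (95% interval -0.22 to 0.05), Upp1 at 0.05 (95% interval -0.16 to 0.25) and Ralb at 0.007 (95% interval -0.16 to 0.17). The intervals of these 6 held 0, and all were too wide to place the clones exactly: that of Upp1 reached beyond the WT mean.

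The other 4 genes lay farther from the midpoint, on the WT side, where the means of the other 6 also fell. Dstn was -0.30 (95% interval -0.42 to -0.18) from its midpoint, which put the R595H/+ clones below WT. For Lpp the distance was -0.29 (95% interval -0.46 to -0.12) and for Dapk1 -0.24 (95% interval -0.45 to -0.03), so that R595H/+ stood at WT level. A2m was at 0.32 (95% interval 0.03 to 0.61), nearer to WT than to R595H/R595H. The 95% intervals of these 4 left out 0. After adjustment over all 9588 genes tested, however, limma gave p-values of 0.167 for Dstn, 0.323 for Lpp, 0.463 for Dapk1 and 0.478 for A2m. No tested gene was called (0%, with 955 under 0.05 before adjustment). Adjusted p-values of the other 6 ran from 0.677 for Grsf1 to 0.987 for Ralb.

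**Figure D3:**
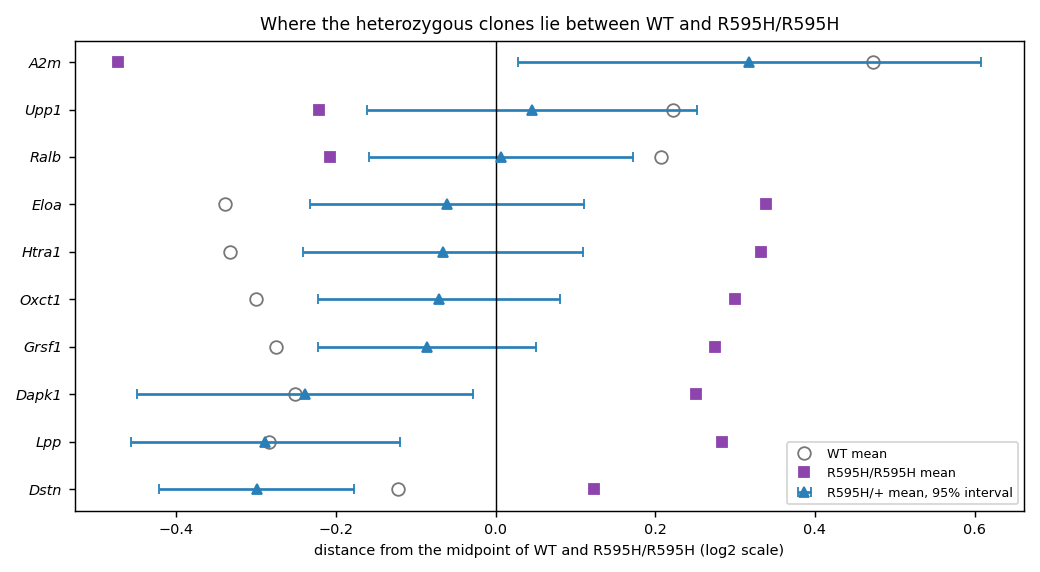
Position of the R595H/+ clones (blue triangles, with 95% intervals from limma) for each of the 10 genes relative to the midpoint of WT (open circles) and R595H/R595H (purple squares), which is 0 on the horizontal axis (log2 scale). The triangle falls on the WT circle for Lpp and Dapk1, beyond it for Dstn, and within about 0.09 of the midpoint for 6 genes.

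The WT clones entered the choice, so the difference of R595H/+ from WT is given as a description only. It was 0.28 for Eloa, 0.27 for Htra1, 0.23 for Oxct1 and 0.19 for Grsf1; that of Htra1 was 0.18 without R595H/+ C21. Clone values of WT and R595H/+ did not overlap for these 4 genes and for Dstn, 5 of the 10, where 12.5% of all 9588 genes did not overlap, although single libraries of Htra1, Eloa and Grsf1 did. Dstn was at -0.18, opposite in sign to its R595H/R595H difference. Ralb stood at -0.20, Upp1 at -0.18 and A2m at -0.15, with overlap in each, and all 3 depended on single clones. Ralb was at -0.12 without C21 and -0.30 without C23, Upp1 at -0.10 without C21, and A2m at -0.38 without C7 and 0.01 without C5. Lpp and Dapk1, at -0.005 and 0.01, changed sign with the clone left out, over -0.08 to 0.05 and -0.09 to 0.08. Over all genes tested, limma called none of the 9588 in this comparison (0%, with 736 under 0.05 before adjustment). R595H/R595H stood apart from R595H/+ by clone values for 9 of the 10 genes, all but Upp1, where 25.4% of the 9588 genes stood apart. The differences ran from -0.79 for A2m to 0.57 for Lpp. Both counts share clones with the choice, and nothing is read from them.

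To see whether the pathways around these genes moved with them, 10 lists of partners and family members were read from the same fits, with the 10 genes left out; 123 of their 142 genes were in the table. In Trim71-KO, 7 of the 109 tested were higher and 17 lower (22.0% called, beside 18.6% of all genes), with a median difference of -0.02 beside -0.003 over all genes. With the code as a block, 3 were higher. In R595H/R595H, 1 of 108 was higher and 0 lower (0.926%, beside 3.42%), and in the test against the midpoint 0 of 108 were called. The lists were drawn up with earlier results of these data known.

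Around Oxct1, 3 of 8 ketone body and succinyl-CoA genes fell in Trim71-KO and 0 rose, while Oxct1 itself stood higher. Suclg1, a subunit of succinyl-CoA ligase, fell by 0.35 ± 0.08 (limma adjusted p = 0.00537). Bdh1, which oxidizes hydroxybutyrate upstream of Oxct1, fell by 0.30 ± 0.08 (adjusted p = 0.0102 by limma), and the ketone and lactate transporter Slc16a1 by 0.25 ± 0.06 (0.0058). In R595H/R595H none of the 8 was called, and Suclg1 and Bdh1 were at 0.13 ± 0.10 and 0.11 ± 0.09 over WT.

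Of the zyxin family and its partners, with Lpp higher, 3 of 11 fell in Trim71-KO and 1 rose. The weakest fall was kept in 7 of 14 alternatives and lost with the code as a block (limma adjusted p = 0.0788). The LIM proteins Ajuba and Wtip each fell by 0.38, ± 0.07 and ± 0.09 (limma adjusted p = 0.00144 and 0.00459). Enah, which promotes actin filament growth, rose by 0.20 ± 0.05 (adjusted p = 0.0142 by limma; 0.0622 at most over the alternatives, its call being lost without Trim71-cond 2B). None was called in R595H/R595H.

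In the list for Dapk1, 2 of 8 fell in Trim71-KO. Mcm3, a subunit of the replicative helicase, fell by 0.41 ± 0.05 (limma adjusted p = 2.55e-05), and the myosin light chain Myl12a by 0.24 ± 0.07 (0.0216; up to 0.0756 over the alternatives, its call being lost without either 3A library, either 2B library or Trim71-KO 3B). Rps6ka1 was at -0.18 ± 0.07 and was not called (0.0677). None was called in R595H/R595H, where Mcm3 was at -0.20 ± 0.08.

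Of 15 actin turnover genes beside Dstn, 4 fell and 2 rose in Trim71-KO. Both rises were lost with the code as a block (limma adjusted p = 0.0821 and 0.0758). They were kept in 2 and 6 of 14 alternatives. Cfl1, the destrin relative cofilin, fell by 0.32 ± 0.06 (limma adjusted p = 0.00117), whereas Cfl2 was at 0.004 ± 0.07 and was not called. Wdr1, which assists cofilin in taking filaments apart, fell by 0.41 ± 0.08 (adjusted p = 0.00113 by limma). In R595H/R595H, Tmsb4x, which holds actin monomers, rose by 0.51 ± 0.13 (limma adjusted p = 0.0417), and neither Cfl1 (0.13 ± 0.10) nor Cfl2 (0.18 ± 0.15) was called. The call on Tmsb4x was lost in 7 of 15 alternatives, with an adjusted p of up to 0.14, among them the 5/2 libraries alone and leaving out C16, C14, C15, C7, C5 or C24.

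Beside Ralb, 2 of 19 Ral pathway and exocyst genes rose in Trim71-KO and 1 fell. The exocyst subunit Exoc4 rose by 0.38 ± 0.05 (limma adjusted p = 7.09e-05). Rala, the near relative of Ralb, fell by 0.20 ± 0.07 (adjusted p = 0.0439 by limma), and Tbk1, a kinase that Ralb engages through the exocyst, rose by 0.21 ± 0.07 (0.0447). These 2 calls were lost with the code as a block (adjusted p = 0.0998 and 0.101) and without most single libraries, with values up to 0.16 and 0.12. None was called in R595H/R595H, where Rala was at -0.13 ± 0.08, Exoc4 at 0.16 ± 0.07 and Tbk1 at 0.27 ± 0.08 (limma adjusted p = 0.0861 for Tbk1).

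In the mitochondrial RNA granule list of Grsf1, 2 of 17 rose and 2 fell in Trim71-KO. Pnpt1, which degrades mitochondrial RNA, rose by 0.18 ± 0.05 (limma adjusted p = 0.0201, up to 0.0562 over the alternatives). Hsd17b10, a subunit of mitochondrial RNase P, fell by 0.28 ± 0.08 (0.0202, up to 0.0741), and the helicase Dhx30 fell by 0.23 ± 0.07 (0.0284, up to 0.104). These 3 calls were lost without Trim71-cond 3A. The other gene that rose was kept in 3 of 14 alternatives and lost with the code as a block (limma adjusted p = 0.0768). Of 14 elongin genes, Vhl, the substrate receptor that binds elongins B and C, fell by 0.23 ± 0.08 (limma adjusted p = 0.0443), a call lost with the code as a block (0.0895) and kept in 3 of 14 alternatives. Cul2, the scaffold of the Vhl ubiquitin ligase, was at -0.10 ± 0.07 in Trim71-KO and -0.24 ± 0.07 in R595H/R595H, and Polr2a, the largest subunit of RNA polymerase II, at -0.11 ± 0.05 and -0.35 ± 0.11. Neither was called (limma adjusted p = 0.0609 and 0.0937 in R595H/R595H).

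None of the 10 pyrimidine genes tested beside Upp1 was called, and Tyms, thymidylate synthase, was nearest in Trim71-KO at -0.15 ± 0.06 (limma adjusted p = 0.0925). Ctps, CTP synthase, was at 0.03 ± 0.06 in Trim71-KO and 0.18 ± 0.07 in R595H/R595H, and the uridine kinase Uck2 at -0.07 ± 0.05 and -0.11 ± 0.07. Of 3 HtrA protease and substrate genes none was called, Htra2, the mitochondrial relative, being at 0.08 ± 0.10 in Trim71-KO. The matrix proteins Fn1 and Ltbp1 were at 0.007 ± 0.06 and 0.03 ± 0.09 there, and at -0.07 ± 0.10 and 0.006 ± 0.13 in R595H/R595H. In the list of A2m, 1 of 4 fell: Lrpap1, a chaperone of the receptors that clear A2m, by 0.51 ± 0.08 (limma adjusted p = 0.000172), while Lrp1, the main such receptor, was at 0.18 ± 0.09 (0.167). Cd109, a relative of A2m anchored to the cell surface, was at -0.02 ± 0.10 in Trim71-KO and -0.12 ± 0.10 in R595H/R595H. None of these 3 was called in R595H/R595H, the genotype in which A2m stood lowest.

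**Figure D4:**
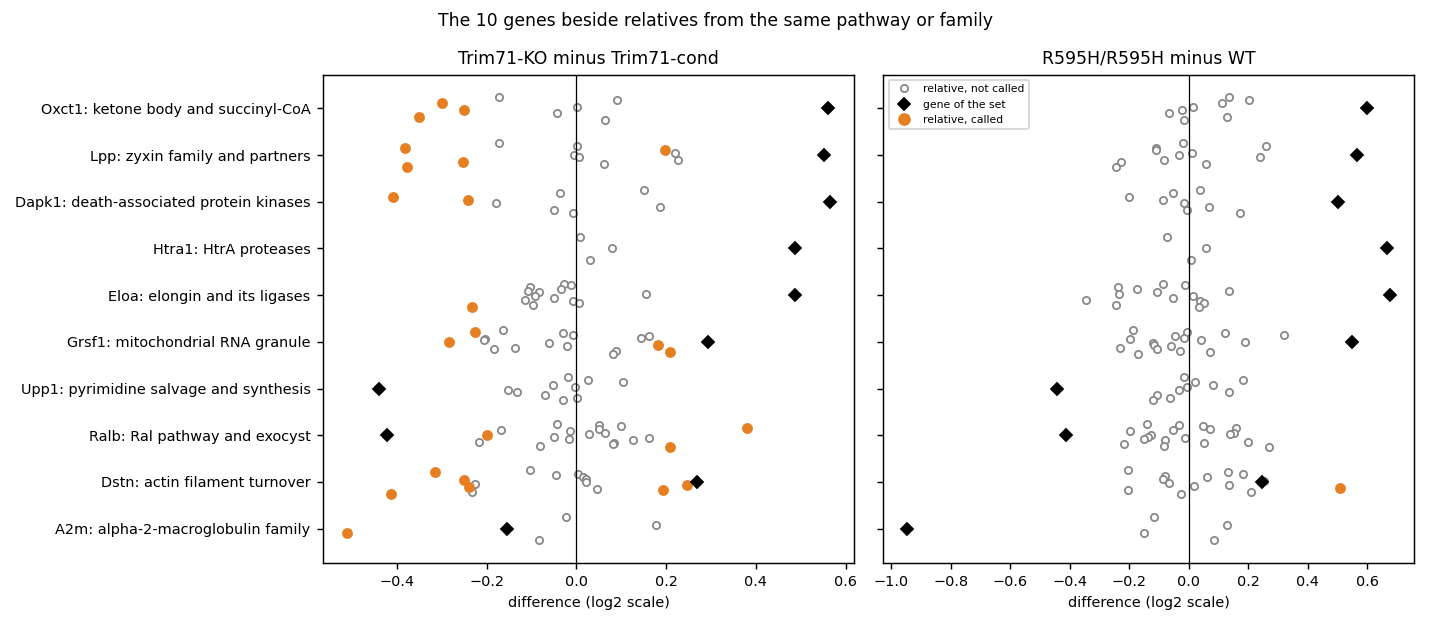
Differences (horizontal axes, log2 scale) of the 10 genes (black diamonds) and of the tested members of their 10 lists (circles, orange where limma's adjusted p was under 0.05) in Trim71-KO against Trim71-cond (left) and R595H/R595H against WT (right). The diamonds lie at or beyond the edge of their own lists on both sides in most rows, since they were chosen for that, and the right panel has 1 orange circle, Tmsb4x at 0.51.

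Neighbouring genes were examined because position played no part in the choice. The nearest measured gene on each side gave 20 neighbours, none overlapping its member, of which 11 were tested in each system. In Trim71-KO 4 rose and 0 fell (36.4% called, beside 18.6% of all genes), and in R595H/R595H 1 rose (9.09%, beside 3.42%). Mob1b, which encodes an adaptor of the Hippo pathway kinases and lies 44.7 kb from Grsf1 on the opposite strand, rose in both. Its means were 7.08 in Trim71-cond and 7.83 in Trim71-KO, a rise of 0.75 ± 0.08 (limma adjusted p = 1.91e-06) against 0.29 ± 0.07 for Grsf1. In R595H/R595H it rose by 0.33 ± 0.08 (adjusted p = 0.0321 by limma), a call lost in 7 of 15 alternatives: with equal library totals and without C16, C14, C15, C7, C5 or C24, with a p of up to 0.17. Rufy3, 8.06 kb from Grsf1 on its other side, was at -0.03 ± 0.08 in Trim71-KO and was not called.

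The other neighbours that rose in Trim71-KO were AW549877, 30.6 kb from Oxct1 (0.31 ± 0.06, limma adjusted p = 0.00111), Zfp808, 1367 kb from Dapk1 (0.29 ± 0.06, 0.00198), and Plekha1, 22.8 kb from Htra1 (0.25 ± 0.06, 0.00976; 0.0589 without both 1A libraries). In R595H/R595H these stood at 0.06, 0.10 and 0.06 over WT and were not called. Rrbp1 and Rpl11, the nearest neighbours of all at 4.07 kb from Dstn and 6.50 kb from Eloa, were not called in either system.

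Each gene was last compared with all 9529 genes tested in both systems, after centring each system on its own mean, over 8 conditional libraries and 9 clones. The measure is the root-mean-square difference of the 17 centred values on the log2 scale, which falls as 2 patterns come closer; it is a description, and the 17 values share the groups that chose the 10 genes. Oxct1 and Eloa were each other's nearest gene, at 0.09, where the centred values of Oxct1 and Eloa had a root mean square of 0.27 and 0.28. Lama1, a laminin chain, was nearest to Lpp at 0.08, before Tet2, a DNA demethylase, at 0.11. Tef and Fah were nearest to Dapk1 (0.07 and 0.11), and Nme4 and Ddah1 to Htra1 (0.11 and 0.12).

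For Upp1 the nearest were Galnt11 and Ly6e at 0.08 and 0.09, and for Ralb Enpp4 and Ywhag at 0.08 and 0.09. Sema6a and Rxra were nearest to Grsf1, both at 0.10, and Neil1 and Akap5 to Dstn, both at 0.08. Polh was second for Oxct1 and Fam126a for Eloa, at 0.10 each. A2m had no gene as near: Fam162a and Egln3 came closest at 0.18 and 0.20. The measure is not scaled to the spread of a gene, however. The centred values of A2m had a root mean square of 0.36, beside 0.17 for Dstn and 0.22 for Grsf1. Fam162a stood at -0.39 in Trim71-KO and -0.56 in R595H/R595H, beside -0.16 and -0.95 for A2m.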

How the data were processed

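The 10 genes and the lists of partners were chosen with earlier results of these data known. The authors deposited 1 table of log2-scale values for 13283 genes in 20 libraries, and per the submitters' processing notes CASAVA 1.8, STAR and DESeq2 were used. The transformation, the build and how reads were counted are not stated in those notes or the labels. The plan allowed for linear values with 1 added before the log, but the table ran from -0.65 to 18.0 and was used as deposited. Libraries of 1 clone were averaged. The date of the 20/1 library of R595H/+ C15 is from its title, and its day tag gives another. limma 3.58.1 in R 4.3.3 (trend and robust) was fitted to the 8 conditional libraries (9580 genes) and to the 9 clone values (9588 genes), for genes whose mean reached 10 in linear units (3.32 in log2). p-values were Benjamini-Hochberg adjusted over all genes and called under 0.05. The fits were tested on simulated data, with independent noise and the same spread in every group for a gene. These data differ from that setting, so the simulation does not vouch for their p-values.

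The fit of the conditional libraries had no block, and the code as a block was an alternative. The labels' day tag repeats the number in each conditional code, but same-code libraries shared no clear deviation in the same direction. Their deviations from the group means had a correlation across genes of -0.89 (1A), -0.09 (2B), -0.12 (3A) and 0.13 (3B). The 1A libraries thus nearly mirrored each other, for a reason that was not tested. The main fit treated all 8 libraries as independent although the 1A libraries were correlated, so its SEs and adjusted p-values may be too small. Genes named outside the 10 are the 3 of each list with the smallest p-values, Rala, Cfl1 and Cfl2, neighbours that were called and the 2 nearest in pattern; Rufy3, Rrbp1 and Rpl11 were named after their values were seen. Gene positions are from GENCODE vM21, where 13156 of the 13283 symbols were found once. Alternatives were another scaling, no filter, no trend or robust step, the code as a block, 5/2 libraries alone, clone as a random effect and each replicate left out.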

Additional observations from a re-analysis of the deposited data

Results flagged for a closer look

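Among the 20 groups of 4 conditional libraries tested (10 genes in Trim71-cond and Trim71-KO), 2 held a library far from the other 3, where chance flags about 1 in 20 groups. Htra1 in Trim71-KO 3A was at 6.508 on the log2 scale, and its distance to the nearest of the other libraries was 0.932 of the range of the group. Eloa in Trim71-cond 3A was at 5.957, at 0.92 of the range. Without these libraries, the Trim71-KO difference was 0.54 for Htra1 and 0.41 for Eloa, in place of 0.49 for each.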

How the results depend on the processing

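No difference of the 10 genes in Trim71-KO or R595H/R595H changed sign under the alternatives run. In 3 cases it moved by more than the larger SD of the gene's own 2 groups. Grsf1 in R595H/R595H was 0.59 after quantile normalization and 0.51 with equal library totals in place of 0.55. Ralb was -0.45 with equal totals in place of -0.41. This measure marks small shifts where clones were tight. Larger shifts of widely spread genes stayed within it, such as A2m at -1.18 without C7 in place of -0.95. Small differences in R595H/+ did change sign. Against WT, Lpp was 0.030 from the 5/2 libraries alone, and without single clones Lpp ran from -0.080 to 0.051, Dapk1 from -0.092 to 0.083 and A2m from -0.38 to 0.010. Against the midpoint, Upp1 was -0.0034 from the 5/2 libraries alone and -0.039 to 0.12 without single clones, and Ralb -0.095 to 0.090. The midpoint tests of the 10 genes stayed uncalled under every alternative run, the lowest adjusted p being 0.0568 for Dstn.

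The count of genes called in R595H/R595H against WT depended on single clones. It was 328, but 157 with equal library totals and 191 from the 5/2 libraries alone. Leaving out 1 clone gave 67 (without C14) to 541 (without R595H/+ C21), with 68 without C7, 73 without C5, 81 without C16, 171 without C15 and 208 without C24. The cause was not tested. Against the midpoint, 0 genes became 3 with all 12 libraries and clone as a random effect.

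Of the partner genes, 7 were higher in Trim71-KO. This became 4 with no filter, 3 without trend and robust, 3 with the replicate block, and 1 (without Trim71-cond 2B) to 6 without single libraries; it was 2 without both 1A libraries, an alternative chosen after seeing the data. The 17 lower ones became 11 (without Trim71-cond 3A or Trim71-KO 2B) to 16 without single libraries, 14 with the replicate block and 18 without trend and robust. In R595H/R595H, the 1 higher became 0 in the 5/2 libraries and 0 to 1 without single clones, and the 0 lower became 1 with all 12 libraries and 0 to 3 without single clones (3 without C20). The 1 neighbour called there became 0 with equal totals, 2 with all 12 libraries and 0 to 1 without single clones. With the replicate block, the 1783 genes called in Trim71-KO became 1392, and without single libraries 1291 to 1634. A smaller added constant was not run, since the values were already logs. Depth is unknown and sets no limit that could be given.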
